A study of Mus musculus with 2 samples.

Results

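Lipid droplets are the fat stores of the adipocyte, and the 10 genes described here encode the proteins that coat them, fuse them and help them form. They were matched by symbol in both deposited files, where all 10 are listed among 24421 genes: the perilipins Plin1, Plin2, Plin3, Plin4 and Plin5, the CIDE proteins Cidea and Cidec, and the endoplasmic reticulum proteins Bscl2, Fitm1 and Fitm2. The samples were 3T3-L1 cells, a mouse preadipocyte line that fills with fat under hormones, at passages 10 to 13 and labelled with the strain background C57BL/6. Both cultures were induced for 2 days with insulin (1 µg/mL), dexamethasone (0.25 µM) and IBMX (0.5 mM) in 10% fetal bovine serum, and were then kept on insulin. The control received no further agent, and the other culture received DF, a multi-herbal preparation named DF-GA70 in the sample title, up to harvest. Neither the DF dose nor the harvest day is stated in the labels.

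There was 1 library per condition, so every value below is a single measurement without replicate error, no test was possible, and each difference compares these 2 libraries. Values are the deposited log2 values, and differences are DF minus control on that scale. The highest 140 values, down to 13.98, are identical in the sorted files. Above that level a value gives a gene's rank and not its amount. Of the 12337 ranks above 0 in both files, these included, 97.9% differ by at most 0.1 between the sorted files. Folds below that level are therefore also largely set by rank. Genes at or above 8.18 (the median non-zero value, called the level floor) in 1 or both libraries were examined; 6761 met this. How deeply either library was sequenced is unknown. In bulk RNA, fewer cells of a type and less RNA per cell cannot be told apart.

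A lipid droplet is a core of triglyceride under a phospholipid monolayer. Perilipins sit on that monolayer: Plin1 is the coat protein of mature fat cells and controls the access of lipases, Plin2 coats droplets in most cell types, Plin3 moves from the cytosol to young droplets, Plin4 coats small droplets in fat cells, and Plin5 is typical of oxidative tissues such as heart, muscle and brown fat. Cidec and Cidea gather where droplets touch and pass lipid from the smaller to the larger. Seipin (Bscl2) and the FIT proteins (Fitm1, Fitm2) act in the endoplasmic reticulum, where droplets bud; human loss of seipin causes generalized lipodystrophy.

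Plin2, Cidec, Bscl2 and Fitm2 were higher in the DF library by at least 1.5-fold, whereas Plin1, Plin3 and Plin4 lay within 1.5-fold. Of the 7 examined members, all of which reached the level floor in both libraries, 4 passed 1.5-fold upwards in the DF library and 0 downwards. Over all genes examined, 10.2% were higher by this rule and 10.9% were lower. The differences of the 7 had a median of 0.67 log2 units, and those of all genes examined and above 0 in both libraries had a median of 0.01 (SD across genes 0.53). None of the 7 reached 2-fold, a limit that 2.56% of genes passed upwards and 3.21% downwards. The remaining 3 members, Plin5, Cidea and Fitm1, lay below the floor in both libraries.

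**Figure D1:**
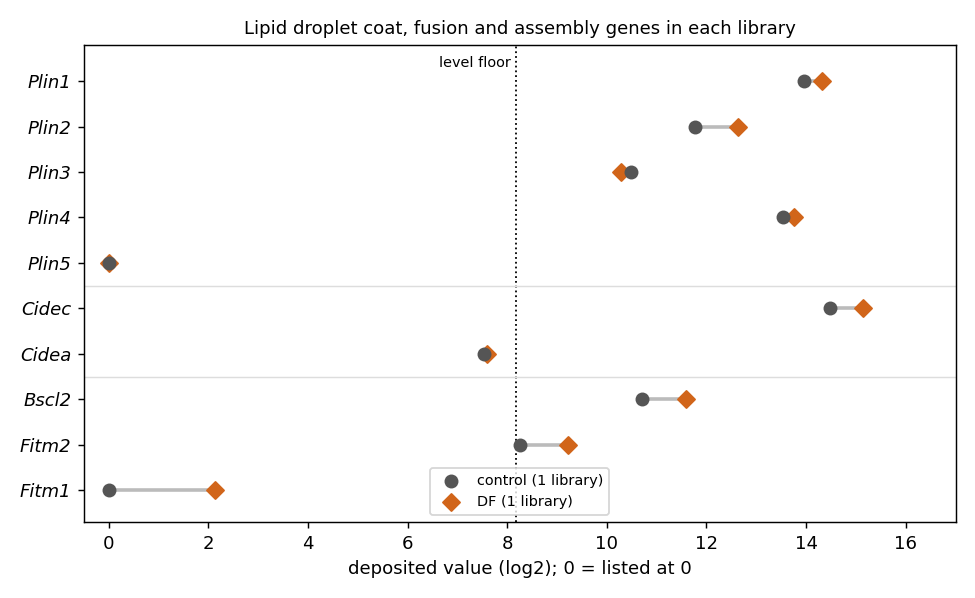
Deposited log2 value (x axis) of each member in the control library (grey circles) and the DF library (orange diamonds), grouped as perilipins, CIDE proteins and endoplasmic reticulum proteins from top to bottom; the dotted line is the level floor of 8.18. The orange symbol lies clearly to the right for Plin2, Cidec, Bscl2 and Fitm2, and Plin5 is listed at 0 in both libraries.

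Sequences around annotated starts of these genes are shown as a description, and their part in the members' differences was not tested. RefSeq promoter windows (build GRCm38.p6, 300 bases, from 250 before to 50 after an annotated start) were held for 9 of the 10 members (not Cidea), in 13 windows. Those printed are the windows with a motif match among Plin1 and the 4 members past 1.5-fold, with the only Fitm2 window. Each runs 5′ to 3′ on the gene's strand from 250 bases before the start to 10 after it, and capitals mark motif matches on either strand.
Plin1: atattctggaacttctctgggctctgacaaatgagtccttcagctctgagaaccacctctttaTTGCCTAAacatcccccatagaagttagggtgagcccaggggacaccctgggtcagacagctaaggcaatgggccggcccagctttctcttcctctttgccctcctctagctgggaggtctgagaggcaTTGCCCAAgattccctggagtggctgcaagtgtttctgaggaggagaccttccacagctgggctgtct
Plin2: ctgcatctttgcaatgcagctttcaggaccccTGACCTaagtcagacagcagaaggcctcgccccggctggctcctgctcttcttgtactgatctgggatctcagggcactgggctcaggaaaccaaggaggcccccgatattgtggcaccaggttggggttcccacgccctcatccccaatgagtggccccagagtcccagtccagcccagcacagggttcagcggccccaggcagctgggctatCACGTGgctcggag
Cidec: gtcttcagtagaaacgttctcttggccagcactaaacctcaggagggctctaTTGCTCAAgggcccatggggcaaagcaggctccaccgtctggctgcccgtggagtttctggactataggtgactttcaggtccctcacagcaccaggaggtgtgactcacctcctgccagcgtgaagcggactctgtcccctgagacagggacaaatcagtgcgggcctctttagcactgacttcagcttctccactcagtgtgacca
Bscl2: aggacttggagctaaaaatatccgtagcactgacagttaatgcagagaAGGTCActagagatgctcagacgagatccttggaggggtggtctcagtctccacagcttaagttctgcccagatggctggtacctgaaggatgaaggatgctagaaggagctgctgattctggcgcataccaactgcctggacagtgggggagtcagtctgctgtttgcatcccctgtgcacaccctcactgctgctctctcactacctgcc
Fitm2: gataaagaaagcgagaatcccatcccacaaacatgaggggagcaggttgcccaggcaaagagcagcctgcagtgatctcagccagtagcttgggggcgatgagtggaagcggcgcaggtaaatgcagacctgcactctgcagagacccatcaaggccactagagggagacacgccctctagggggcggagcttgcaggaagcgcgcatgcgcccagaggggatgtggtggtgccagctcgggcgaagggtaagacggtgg

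These windows lie at chr7:79732767-79733026 (Plin1, minus strand), chr4:86670050-86670309 (Plin2, minus strand), chr6:113434755-113435014 (Cidec, minus strand, the inner of 2 starts), chr19:8839078-8839337 (Bscl2, plus strand, the middle of 3 starts) and chr2:163472620-163472879 (Fitm2, minus strand). The letters searched were AGGTCA (the core of nuclear receptor elements), AGGTCA repeated after 1 base (the DR1 element that PPAR and RXR bind), TTGCNNAA and its palindrome TTGCGCAA (C/EBP), CACGTG (E-box) and TATAAA, on both strands. The DR1 contains AGGTCA, and the palindrome is a form of TTGCNNAA. Plin1 held TTGCNNAA at -187 and at -58 from the start, and the inner Cidec window held it at -198. This was 2 of 13 member windows, against 10.8% of all 32851 windows. AGGTCA stood at -218 in Plin2, at -202 in the middle Bscl2 window and in both windows of Plin5. That was 4 of 13 windows against 16.3% of all. Of the 9 members with a window, only Plin2 held CACGTG, at -4, across its start; 7.15% of all windows hold it. DR1, TTGCGCAA and TATAAA were in 0 of the 13 windows, against 0.0396%, 0.183% and 13.6% of all. The Fitm2 window held no match, nor did the other Cidec and Bscl2 windows, which are not printed. The printed Cidec and Bscl2 windows lie within the annotated spans of these genes. A match describes letters only.

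Plin1 read 13.97 in the control library. With DF it read 14.32, among the values the files share, which made it 1.28-fold higher, within the 1.5-fold limit. Its rank went from 142 of 13013 genes above 0 to 105 of 12337. The gene is on the minus strand of chromosome 7, from 79720218 to 79732903 (GRCm38). Of 115 genes with a mean level from 14 to 16, 21.7% had a difference at least as high.

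Plin2 went from 11.77 (control) to 12.64 (DF), 1.82-fold higher, the largest difference of the perilipins. Its rank went from 977 to 468. Among 681 genes with a mean level from 12 to 14, 1.76% were at least as much higher in the DF library. The gene spans chromosome 4, 86648386 to 86670060, on the minus strand. Plin2 minus Plin1 was -2.20 log2 units in the control and -1.69 with DF, so the Plin2 to Plin1 ratio was 1.42-fold higher with DF.

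Plin3 was the only examined member with a lower value in the DF library. It stood at 10.49 in the control and 10.28 with DF, a difference of -0.21 that 31.1% of all examined genes matched or went below. The ratio of Plin3 to Plin2, the perilipins found in most cell types, was 2.11-fold lower with DF.

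Plin4 was at 13.55 and 13.75, a difference of 0.21. Its last 17 bases overlap the end of Hdgfl2, a gene on the other strand that the files list as Hdgfrp2, at 12.93 and 13.22. The kit reads transcript ends, and no label says whether counting used the strand.

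Plin5 was listed at 0 in both libraries, as were 10815 genes. Plin4, Plin5 and Plin3 lie in this order in a stretch of 192 kb on chromosome 17, all on the minus strand, at 56100591 to 56109803, 56111601 to 56117596 and 56277476 to 56292873. Plin4 and Plin5 are 1797 bp apart, yet Plin4 was among the 213 highest genes of the control library and Plin5 had no value above 0.

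**Figure D2:**
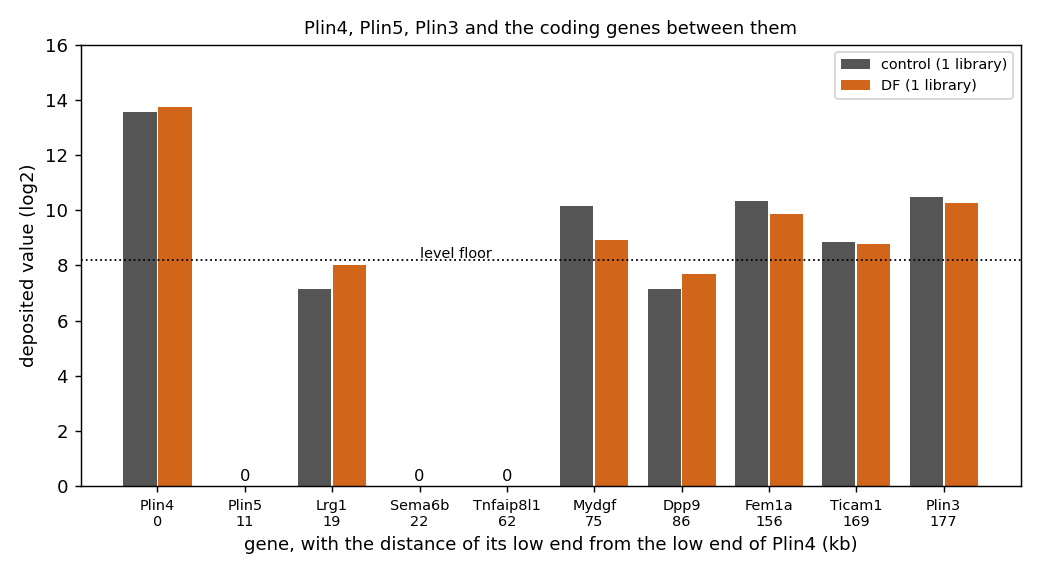
Deposited log2 values (y axis) in the control (grey bars) and DF (orange bars) libraries for Plin4, Plin5, Plin3 and the 7 coding genes between Plin5 and Plin3, in genomic order; the number under each gene is the distance of its low end from that of Plin4 in kb, and 0 marks genes listed at 0 in both. Plin4 stands highest and Plin5 beside it is at 0. Mydgf, Fem1a, Ticam1 and Plin3 are lower in the DF library, and Plin4, Lrg1 and Dpp9 are higher.

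Of the 7 genes between Plin5 and Plin3, 3 reached the floor, and these 3 had lower values with DF, as Plin3 had. Only Mydgf among them passed 1.5-fold, and the 2 below the floor and above 0 (Lrg1 and Dpp9) were higher. Over all genes examined and above 0 in both, 51.1% had a difference above 0. Lrg1, a secreted leucine-rich glycoprotein gene and the next one after Plin5, was at 7.14 and 8.03, below the floor in both. Mydgf, a secreted growth factor gene, was at 10.17 and 8.92, a difference of -1.25. Fem1a was at 10.34 and 9.88, and Ticam1, a Toll-like receptor adaptor, at 8.85 and 8.79. Dpp9, a dipeptidyl peptidase, was at 7.13 and 7.70, below the floor in both. Sema6b and Tnfaip8l1 were listed at 0 in both libraries.

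Cidec had the highest value of the 10 genes in both libraries, 14.48 in the control and 15.14 with DF. It was 1.59-fold higher with DF, just past the 1.5-fold limit. Both values fall among the 140 that the files share, so this difference is one of rank, from 94 to 50. Of the 115 genes with a mean level from 14 to 16, 2.61% had a difference at least as high. Cidec exceeded Plin1 by 0.51 log2 units in the control and by 0.82 with DF. Cidec is on the minus strand of chromosome 6, from 113424634 to 113435760.

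Cidea, which is typical of brown and beige fat cells, read 7.54 in the control and 7.59 with DF, below the floor in both. Of 7 other brown and beige markers, 3 were examined, and 2 of these were higher by 1.5-fold and 0 lower. The shares over all genes examined were 10.2% higher and 10.9% lower, and 3 genes are few to set beside them. Cox8b, a cytochrome c oxidase subunit, was at 8.52 and 10.32 and Cox7a1, another subunit, at 8.79 and 9.68. Ppargc1a, a coactivator of mitochondrial genes, was at 9.45 and 9.26, within 1.5-fold. Below the floor, Elovl3 was at 3.32 and 3.07, and Dio2 at 1.46 in the control and listed at 0 with DF. Ucp1, the uncoupling protein, and Prdm16 were listed at 0 in both. Cideb, the third CIDE gene and best known from liver, was at 4.52 and 6.48, also below the floor.

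Bscl2 went from 10.70 (control) to 11.58 (DF), 1.84-fold higher, and its rank went from 2053 to 1121. Among 2193 genes with a mean level from 10 to 12, 1.37% were at least as much higher. It is on the plus strand of chromosome 19, from 8837467 to 8848683. Its first 1728 bases overlap Gng3 on the other strand (4.15 in the control, listed at 0 with DF), and its first 3671 bases overlap AC129217.1, a coding gene model on the same strand whose symbol is not among those listed. Both overlaps are at the start of Bscl2, away from the annotated gene end. Seipin's partner Tmem159, now called Ldaf1, was at 5.61 and 6.46, below the floor.

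Fitm2 went from 8.27 (control) to 9.22 (DF), 1.94-fold higher, the largest difference of the 8 members above 0 in both libraries and the lowest level of the examined ones. The control value is only just above the floor of 8.18, where the spread of all genes is wider. Among 3620 genes with a mean level from 8 to 10, 2.90% were at least as much higher. Fitm2 is on the minus strand of chromosome 2, from 163466379 to 163472629, and its start overlaps the antisense gene 2310001K24Rik (4.96 and 6.71) by 673 bases. The Fitm2 to Bscl2 ratio was nearly equal in the libraries, at -2.43 log2 units in the control and -2.36 with DF.

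Fitm1, the FIT protein of skeletal muscle and heart, was listed at 0 in the control and at 2.13 with DF. That is the lowest non-zero value of the DF file, which 185 genes share, 122 of them listed at 0 in the control, so no fold is given. Its place is the plus strand of chromosome 14, from 55575617 to 55576954. Of 7 skeletal muscle markers, 0 reached the floor in either library, but their summed linear level, as log2, was 3.04 in the control and 6.74 with DF. The DF sum came mostly from Acta1, the skeletal alpha-actin, which was at 1.00 and 6.54. Mylpf, a myosin light chain, was at 0.32 and 3.29. The lowest non-zero value is 0.32 in the control and 2.13 with DF, so levels this low compare poorly between the libraries. Ckm, the muscle creatine kinase, was listed at 0 in the control and at 2.13 with DF, and Tnnt3, a troponin, was at 2.32 in the control and listed at 0 with DF. Myod1, Myog and Myh4 were listed at 0 in both. The part of these markers in the Fitm1 value was not tested.

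**Figure D3:**
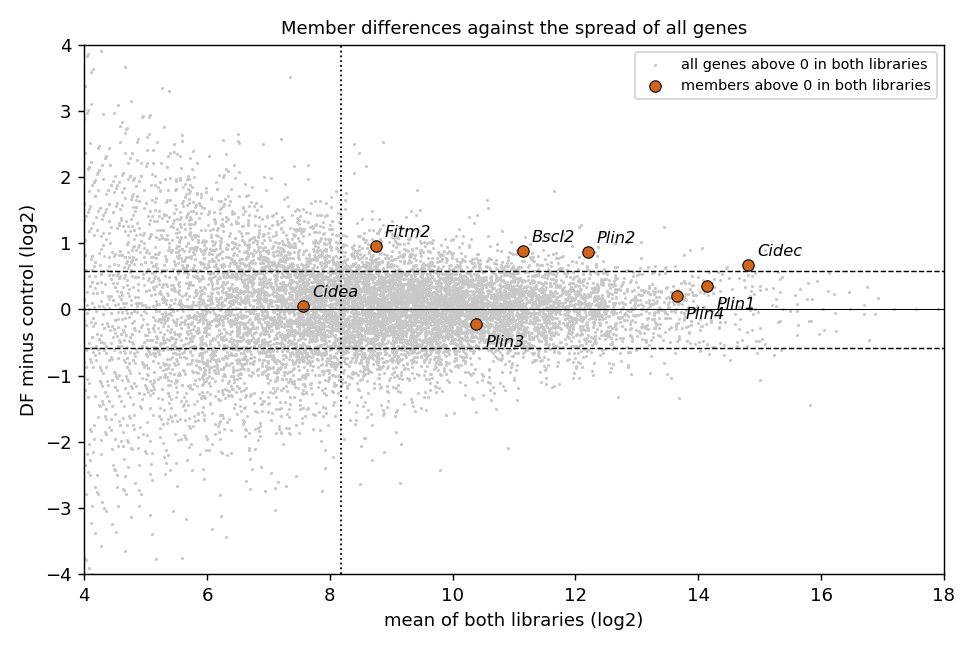
DF minus control (y axis, log2) against the mean of both libraries (x axis, log2) for genes above 0 in both libraries (grey) and the 8 members among them (orange); dashed lines are the 1.5-fold limits, the dotted line the level floor, and genes beyond 4 log2 units or below a mean of 4 are not drawn. Fitm2, Bscl2, Plin2 and Cidec lie above the upper limit, in regions where the grey cloud narrows from left to right.

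Because the kit reads transcript ends, the values are not divided by length. Ordered by deposited level, the control library ran Cidec, Plin1, Plin4, Plin2, Bscl2, Plin3, Fitm2, Cidea, and the DF library had the same order. Divided by the length of the longest coding transcript (1720 nt for Cidec, 1888 nt for Plin2, 5756 nt for Plin4, 3967 nt for Fitm2), Cidea came before Fitm2 in both libraries. On this per-kilobase log2 scale Plin4 stood at 11.02 and Plin2 at 10.85 in the control, and Plin2 at 11.72 and Plin4 at 11.23 with DF. In the DF library, Plin2 came before Plin4 only on the per-kilobase scale, and reads of transcript ends do not call for that division. Without replicates, whether neighbours in the order of either library differ beyond the spread between cultures cannot be said.

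The lipases and cofactors that act on the droplet surface had smaller differences at the median. In the lipolysis list 2 of 11 examined genes were higher by 1.5-fold and 1 was lower, with a median of 0.21. The shares over all genes examined were 10.2% higher and 10.9% lower. Mgll, the monoglyceride lipase, was at 9.74 (control) and 11.38 (DF), and Pnpla3, a lipase-like droplet protein, at 10.91 and 11.55. Ddhd2, another lipid hydrolase, was at 10.16 and 9.52. Pnpla2, the adipose triglyceride lipase, was at 16.32 and 16.58, and Lipe, the hormone-sensitive lipase that binds Plin1, at 14.55 and 15.08. Abhd5, the activator of Pnpla2 that Plin1 holds at the droplet, was at 10.41 and 10.37.

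In triglyceride synthesis, 1 of 11 examined genes was higher, 1 was lower, and the median was 0.13. These counts lie near the shares over all genes examined (10.2% higher, 10.9% lower). Agpat2, an acyltransferase whose human loss also causes generalized lipodystrophy, was at 11.86 and 13.01, 2.22-fold higher. Lpin2, a phosphatidate phosphatase, was at 8.63 and 7.52, 2.16-fold lower, and reached the floor only in the control. Acsl1, which activates fatty acids, was at 15.78 and 15.93, and Lpin1, the main phosphatidate phosphatase of fat, at 14.10 and 13.96.

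Among other droplet-associated proteins, 2 of 18 examined genes were higher, 1 was lower, and the median was 0.20. The count of higher genes lies near the 10.2% over all genes examined, of which 10.9% were lower. Sqle, the squalene epoxidase, was at 11.90 and 12.84, and Osbpl2, an oxysterol-binding protein homologue, at 8.78 and 9.60. Copb1, a coat protein of COPI vesicles, was at 10.54 and 9.83. The caveolar genes Ptrf (now Cavin1) and Cav1 were at 15.22 and 14.75 and at 14.09 and 14.43.

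**Figure D4:**
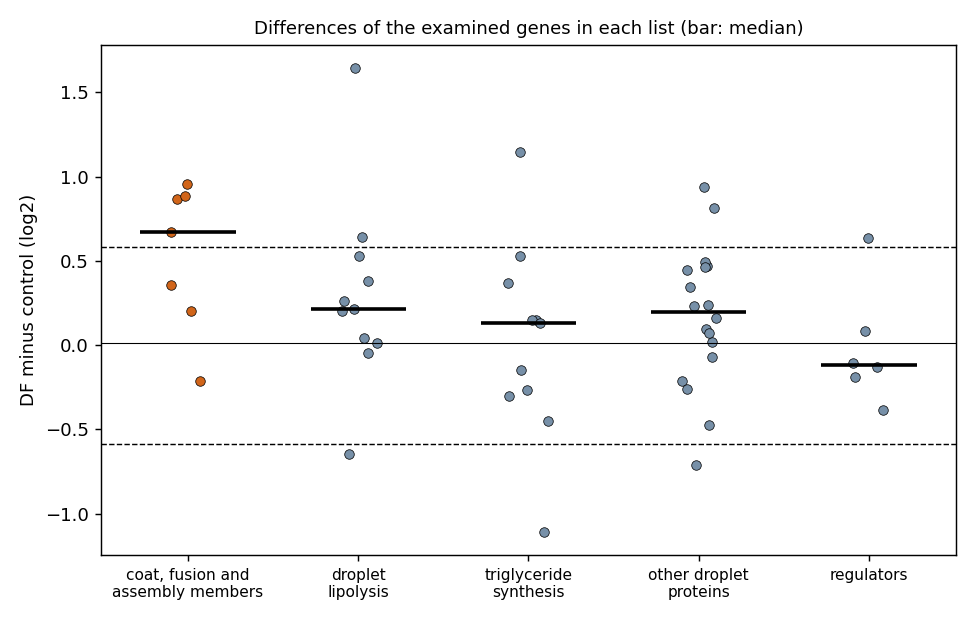
DF minus control (y axis, log2) of every examined gene in the member set and in each of the other lists, 1 point per gene, with the median as a bar; dashed lines are the 1.5-fold limits and the thin line is the median of all genes examined. The members' median is 0.67, and those of lipolysis, triglyceride synthesis, other droplet proteins and regulators are 0.21, 0.13, 0.20 and -0.12.

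Of the transcription regulators known to act on these genes, 1 of 6 examined was higher and 0 were lower, with a median of -0.12. The shares over all genes examined were 10.2% higher and 10.9% lower. The 1 higher regulator was Esrra, the estrogen-related receptor that acts on oxidative genes, at 10.24 and 10.88. Pparg, which drives Plin1 and Cidec in fat cells, was at 11.94 and 11.84, its partner Rxra at 12.20 and 11.81, and Cebpa at 15.56 and 15.64. Ppara, the related receptor of fatty acid oxidation, was at 6.10 and 7.66, below the floor.

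The label of the cells as adipocytes was checked with markers. All 10 mature adipocyte markers were above 0 in both libraries, 1 of the 9 examined was higher by 1.5-fold (Cd36, 14.14 and 14.77) and 0 were lower. The marker not examined was Lep, the leptin gene, at 3.92 in the control and 6.12 with DF, below the floor in both. The summed linear level of the 10, as log2, was 19.05 in the control and 19.20 with DF. Most of this sum comes from Lpl (17.55 in both libraries), Fabp4, Cfd and Adipoq, whose values fall among those the files share. The sum therefore reflects ranks and not amounts. Of the preadipocyte markers, 3 of 4 examined (Dlk1, Pdgfra and Ly6a) were lower with DF by 1.5-fold, and Pdgfrb was at 10.51 and 10.58. For both marker lists, the shares over all genes examined were 10.2% higher and 10.9% lower. Below the floor, Thy1 was at 7.23 and 7.03 and Pi16 at 1.46 and 3.29, and Cd34 and Dpp4 were listed at 0 in both. The summed level of the 8 preadipocyte markers was 16.63 in the control and 15.22 with DF, mostly from Dlk1 (16.55 and 15.10), whose values fall among those the files share. Without Dlk1 the sum of the other 7 was 12.37 in the control and 11.56 with DF. Their part in the differences of Plin2, Cidec, Bscl2 and Fitm2 was not tested. Of 6 macrophage, 4 hepatocyte and 4 endothelial markers, 0 reached the floor in either library, and single markers went both ways. The summed levels, as log2, were 4.83 in the control and 5.72 with DF for macrophage, 1.00 and 3.71 for hepatocyte, and 6.49 and 3.52 for endothelial markers. The hepatocyte sums lie near the lowest non-zero values, which differ between the libraries (0.32 in the control, 2.13 with DF). Pecam1, an endothelial adhesion molecule, was at 6.49 and 2.83, Ptprc, the leukocyte antigen CD45, at 4.33 and 2.64, and Cd68 of macrophages at 2.83 and 4.88. Apoa1, a liver apolipoprotein, was listed at 0 in the control and at 3.71 with DF, and Adgre1, Alb and Kdr were listed at 0 in both. The part of these markers in the members' differences was not tested.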

How the data were processed

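Messenger RNA of 1 control and 1 DF library was read with a Lexogen kit for transcript 3' ends (500 ng of total RNA, single reads of 75 nt), per the labels' protocols. These name both a SENSE 3' and a Quant-Seq kit, so which of them was used is not clear. The deposited values are log2 values per gene symbol, per the file headers and the values; Bowtie2, edgeR and mm10 are named in the submitters' processing notes, and no source used here gives versions, counter, annotation, strand setting or normalization. From the values, the files appear to have been brought close to a common distribution: the highest 140 sorted values are equal and, with these, 97.9% of the 12337 ranks above 0 in both differ by at most 0.1 between the sorted files, which part at the low end. Such scaling can remove differences in total output. Depth is unknown, so no counting interval was computed.

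Differences are DF minus control, with no pseudocount added to the deposited values. Whether these values already held one is unknown. No test across conditions was possible; a 1.5-fold rule of size was used and read against all genes examined. Listed-at-0 values give no fold. Positions come from GENCODE vM21 on GRCm38, the assembly of mm10, and promoters from RefSeq. The members and lists were chosen with earlier results of these data known. All 10 members are named; from each other droplet list, and that of regulators, the 2 most abundant genes and up to 3 with the largest difference past 1.5-fold are named. Abhd5, Tmem159, Cideb, Pparg, Ppara, the genes between Plin5 and Plin3 and the markers were added after their values were seen. Protein sequences were not used here. Work was done in Python 3.11.15 with pandas 2.3.3.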

Additional observations from a re-analysis of the deposited data

How the results depend on the processing

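The differences of the 8 members above 0 in both libraries kept their direction and their side of the 1.5-fold limit in 32 recalculations. These were the ones that could alter them (centring, pseudocounts of 1 or 29.1 on the linear scale, total scaling). They changed the values little: Fitm2 ranged from 0.89 to 0.95, and Cidec, the nearest to the limit, from 0.66 to 0.67. Such settings could hardly have moved a member across the limit, and they say nothing of the spread between cultures. With a 2-fold limit, members higher went from 4 to 0, and over all genes 2.56% were higher and 3.21% lower. The same limit left 1 lipolysis gene higher and 0 lower, 0 other droplet proteins in either direction and 0 regulators higher. Without a floor, 18.3% of all genes were higher, 4 other droplet proteins were higher and 2 lower, 2 regulators were higher, and 2 triglyceride synthesis genes were lower; the median of that list turned to -0.0074, and that of the regulators went from -0.12 to -0.0099. This setting adds genes of low level. With the floor on the mean, 0 triglyceride synthesis genes were lower, since Lpin2 was no longer examined. No paired analysis was possible because each condition has 1 library, and no library could be left out for the same reason.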
